A study of Mus musculus with 9 samples.

Results

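The mitochondrially encoded genes described here were all genes of the deposited count table whose symbol begins with mt-, 37 of 45664 symbols in all. They comprised 13 protein genes, 2 ribosomal RNA genes and 22 transfer RNA genes, which is the full gene set of the mouse mitochondrial chromosome in GENCODE release M21. They were measured by RNA sequencing in microglia, macrophages that live in brain tissue, purified by cell sorting from bilateral visual cortex of adolescent male C57BL/6 mice, with 1 library per mouse. The ethanol group (4 mice) was given 1.8 g/kg of ethanol (EtOH), as a 20% v/v solution in saline, by 2 dorsal subcutaneous injections a day set 2 h apart, 3.6 g/kg daily, from postnatal day 4 to 9. The saline group (5 mice) was given equal volumes of 0.9% NaCl on the same days, and every mouse came from 1 of 3 litters. An older cohort (4 mice, 35 or 36 days old at collection, 2 per treatment) and a younger cohort (5 mice, 29 or 30 days old, 3 saline and 2 ethanol) cut across the treatment groups. The comparison of ethanol with saline asked whether early exposure changed the microglial transcriptome weeks after the last dose. Which litter a mouse belonged to is not stated in the labels, so p-values measure the spread between single mice, litters included.

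Mitochondrial DNA is a small circular genome present in many copies per cell. Each of its strands is transcribed as a long precursor by the polymerase Polrmt, and most mRNAs and rRNAs are released from it by excision of the tRNAs that lie between them. The proteins it encodes are core subunits of respiratory complexes I, III and IV and of ATP synthase (complex V), whose other subunits are encoded in the nucleus and imported. The genome has also been copied repeatedly into nuclear chromosomes, so that a nuclear pseudogene can carry the sequence of a mitochondrial gene.

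Library totals ran from 12816198 to 28859244 counts, and levels are given in CPM (counts per 1000000 of each library's TMM-scaled total). In every library 8 microglial marker genes, among them P2ry12 and Tmem119, summed to between 52675 and 62659 CPM. Markers of neurons and astrocytes, which are among the other cells of the cortex, were present at low level. The 7 oligodendrocyte markers summed to between 198 and 262 CPM, mostly from Mbp and Cnp. Among 8480 genes with a mean of at least 10 CPM, ethanol 2 had 692 genes more than 2-fold below the median of the other libraries and saline 1 had 43, while the other 7 libraries had 0 to 7. Saline 1 was also the library with the fewest neuronal and astrocytic transcripts: its 9 neuronal markers summed to 3.53 CPM against 82.1 to 312 CPM elsewhere, and its 8 astrocytic markers to 4.20 CPM against 77.2 to 233 CPM. Kif5a gave most of the neuronal sum in every library other than saline 1. The neuronal marker Gad1 was at 0 in saline 1 and in ethanol 1, 2 and 3, and the astrocytic marker Gja1 was at 0 in saline 1.

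Of the 37 genes, 24 had at least 1 count, and 569692 counts fell on them in all. Protein genes took 447314 of these counts, the rRNAs 122021 and the tRNAs 357. The counts were spread very unevenly over the protein genes. Cytochrome b, mt-Cytb (chrM:14145-15288 on GRCm38, plus strand), the mitochondrially encoded subunit of complex III, had 134431 counts. The catalytic subunit of complex IV, mt-Co1 (chrM:5328-6872), had 118546 counts. Among the complex I subunits mt-Nd1 (chrM:2751-3707) had 85008 counts, mt-Nd5 (chrM:11742-13565) 46812, mt-Nd4 (chrM:10167-11544) 27310, mt-Nd2 (chrM:3914-4951) 24840 and mt-Nd6 (chrM:13552-14070, the single protein gene on the minus strand) 10038. The complex I subunit mt-Nd3 (chrM:9459-9806) had 328. The other 5 protein genes were at or next to 0: the complex IV subunits mt-Co2 (chrM:7013-7696) and mt-Co3 (chrM:8607-9390) had 1 and 0 counts, and the complex I subunit mt-Nd4l (chrM:9877-10173) and both ATP synthase subunits, mt-Atp8 (chrM:7766-7969) and mt-Atp6 (chrM:7927-8607), had 0 counts over the 9 libraries. A count of 0 allows a level of up to 3 counts per library, or 0.104 to 0.234 CPM of its raw total.

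The protein genes at or near 0 lie next to each other on the mitochondrial chromosome, between positions 6390 and 11042. GENCODE M21 annotates 7 unprocessed pseudogenes on chromosome 1 (chr1:24611535-24616197, minus strand) whose transcripts are near-identical to that stretch in the same order. Gm28661 matched mt-Co2 over 681 bases with no mismatch. Gm10925 matched mt-Atp6 over 678 bases and Gm28437 matched mt-Co3 over 783 bases, also with no mismatch. Gm28438 matched mt-Nd3 over 345 bases with 1 mismatch, Gm10222 matched mt-Nd4l over 294 bases with none, Gm28439 matched the first 876 bases of mt-Nd4 with none, and Gm29216 matched bases 1063 to 1545 of mt-Co1 with 1 mismatch. The first 60 bases of the gene with few counts, mt-Nd3 (chrM:9459-9518, plus strand), and of its copy Gm28438 (chr1:24613060-24613119, minus strand) are shown because the mismatch is among them. They are from the GENCODE M21 transcripts (GRCm38), 5′ to 3′, with the differing base in capitals; it is T3C, counted from 1 at the first base of the gene, with the mitochondrial base first.
mt-Nd3: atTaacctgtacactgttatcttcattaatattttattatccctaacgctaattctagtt
Gm28438: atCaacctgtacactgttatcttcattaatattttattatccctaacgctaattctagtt
The gene with 1 count, mt-Co2 (chrM:7013-7072, plus strand), and its copy Gm28661 (chr1:24615506-24615565, minus strand) were the same base for base over the stretch shown, and no base is capitalised.
mt-Co2: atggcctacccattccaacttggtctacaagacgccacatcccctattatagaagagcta
Gm28661: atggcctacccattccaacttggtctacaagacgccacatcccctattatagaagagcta
Bases 847 to 906 of mt-Nd4 (chrM:11013-11072, plus strand), a gene with many counts, are shown because the copy ends inside them; capitals mark the last bases that Gm28439 also holds.
mt-Nd4: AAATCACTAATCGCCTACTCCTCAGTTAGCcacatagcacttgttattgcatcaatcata

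The amount of sequence that each gene has to itself was measured as the share of its 50-base windows that also occur, base for base, in an annotated nuclear transcript. The share was 100% for mt-Co2, 99.9% for mt-Co3, 99.5% for mt-Atp6, 98.8% for mt-Nd4l and 98.0% for mt-Nd3, the 5 genes with the largest shares. It was 62.2% for mt-Nd4 and 51.1% for mt-Co1, which were counted, and 8.19%, 7.61% and 1.04% for mt-Nd2, mt-Nd5 and mt-Rnr2. It was 0% for mt-Rnr1, mt-Nd1, mt-Nd6, mt-Cytb and mt-Atp8. mt-Atp8 was the 1 protein gene at 0 without an annotated copy: it starts in the 233 bases between the part of mt-Co2 that Gm28661 matches and the start of mt-Atp6, and runs into mt-Atp6. The pseudogenes Gm28661 and Gm10925 are separated by 233 bases too, with no annotated transcript between them.

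Of the 6 protein genes that lie wholly within the copied stretch, mt-Nd3 had 328 of the 329 counts. All 7 protein and rRNA genes wholly outside it had at least 9347 counts. The tRNA genes did not divide in this way: 5 of 5 within the stretch had no count, but so had 4 of the 17 outside it, and most of the others outside had few. The chromosome 1 pseudogenes were not counted in their place: Gm28437 and Gm29216 had 3 counts each over the 9 libraries, Gm10925 and Gm28438 had 2 each, and Gm28661, Gm28439 and Gm10222 had 0. The less similar copies on chromosome 2 had more: Gm13341, 97.6% identical to mt-Co2, had 16 counts, and Gm13340, 97.6% identical to mt-Co1, had 41. The sources used here do not give how reads that align to several places were handled, and the part of shared sequence in the low counts was not tested. Levels of mt-Nd3, mt-Nd4 and mt-Co1 are uncertain on this account, as are those of genes whose annotated ends overlap, among them mt-Atp8 with mt-Atp6, mt-Nd4l with mt-Nd4, mt-Nd5 with mt-Nd6 on the opposite strand, and the tested tRNA mt-Tq with mt-Ti on the opposite strand. A few bases are also shared by mt-Nd1 and mt-Ti, mt-Nd2 and mt-Tw, mt-Co1 and mt-Ts1, mt-Atp6 and mt-Co3, and mt-Ts2 and mt-Tl2. The shares of library given below hold next to nothing from the 5 genes at 0 or 1 count.

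**Figure D1:**
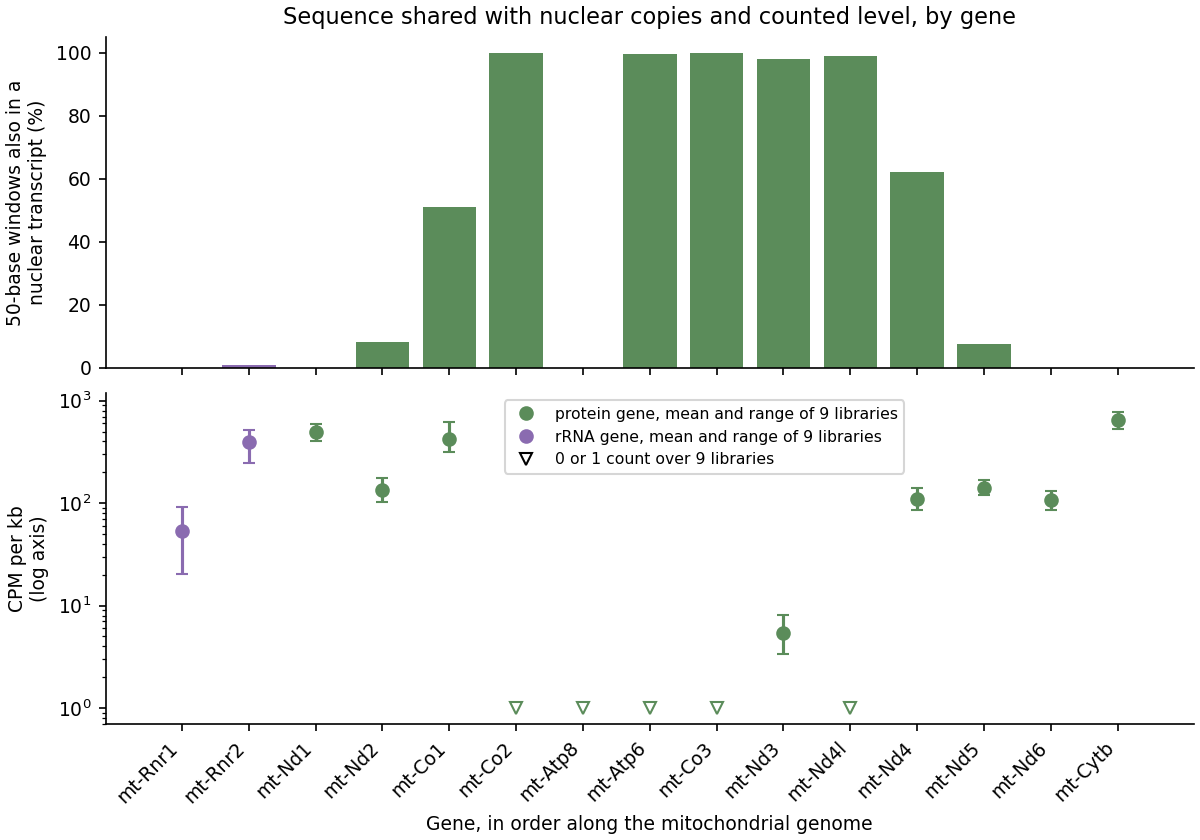
Upper panel: the percentage of each gene's 50-base windows that also occur in an annotated nuclear transcript, for the 13 protein genes and 2 rRNA genes in order along the mitochondrial genome. Lower panel: CPM per kb on a log axis, points for the mean and bars for the lowest and highest of 9 libraries, triangles at the foot for genes with 0 or 1 count over all libraries; the genes with bars near 100% are those with triangles or, for mt-Nd3, the lowest point, and mt-Atp8 is a triangle with no bar.

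Per length of gene, mt-Cytb stood highest, at 648 ± 89.8 CPM per kb (SD, n = 9). It was followed by mt-Nd1 at 492 ± 63.9 and mt-Co1 at 423 ± 101 CPM per kb. The 16S rRNA of the large mitochondrial ribosomal subunit, mt-Rnr2 (chrM:1094-2675), was at 395 ± 85.4 CPM per kb. mt-Cytb lay above mt-Nd1 in 9 of 9 libraries and mt-Nd1 above mt-Co1 in 8 of 9, whereas mt-Co1 lay above mt-Rnr2 in 4 of 9, so mt-Co1 and mt-Rnr2 did not differ beyond the spread between mice.

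A lower tier held the remaining complex I genes, mt-Nd5 at 142 ± 14.7, mt-Nd2 at 133 ± 21.1, mt-Nd4 at 110 ± 17.3 and mt-Nd6 at 107 ± 14.7 CPM per kb. mt-Rnr2 was above mt-Nd5 in 9 of 9 libraries, 2.78-fold on the means. Within the tier mt-Nd5 was above mt-Nd2 in 8 libraries of 9, mt-Nd2 above mt-Nd4 in all 9, and mt-Nd4 above mt-Nd6 in 6, so that the last pair did not differ beyond the spread. The 12S rRNA of the small ribosomal subunit, mt-Rnr1 (chrM:70-1024), was below mt-Nd6 in 9 of 9 libraries, at 53.9 ± 19.1 CPM per kb. mt-Nd3 was lowest of the protein genes with more than 1 count, at 5.35 ± 1.74 CPM per kb. Divided by the 50-base windows that each gene shares with no nuclear transcript in place of its length, the order changed. mt-Co1 came first, at 893 CPM per 1000 such windows against 677 for mt-Cytb, and mt-Nd4, at 302, moved above mt-Nd5 at 158 and mt-Nd2 at 152. The first place depends on the window length. mt-Co1 had 731 such windows of 50 bases but 1000 of 100 bases, and mt-Cytb 1095 and 1045. Windows of 100 bases put mt-Cytb first again.

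By mean CPM, without regard to length, mt-Cytb ranked 140 among all symbols, mt-Co1 171, mt-Rnr2 181 and mt-Nd1 269. Relative to each other the members were not equally steady. The highest library exceeded the lowest 4.50-fold for mt-Rnr1, 2.08-fold for mt-Rnr2 and 1.97-fold for mt-Co1, against 1.39-fold for mt-Nd5. The coefficient of variation between mice that edgeR estimated had a median of 0.160 over the 12 members that passed the filter on low counts, against 0.169 over all genes tested and 0.120 over genes with a mean of at least 100 CPM.

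The tRNA genes were barely counted. All 22 together had between 25 and 53 counts per library, 9 had none in any library, and the 13 others shared 357. The filter on low counts was passed by mt-Tq and mt-Tp, with 136 and 111 counts in total, and mt-Tc followed with 44. These 3 genes, all on the minus strand, encode the tRNAs for glutamine, proline and cysteine. Their transcripts from GENCODE M21, at chrM:3772-3842, chrM:15356-15422 and chrM:5192-5257, are shown because they hold most of the counted tRNA; capitals mark the anticodon, found as the middle of a loop of 7 bases closed by a stem of 5 base pairs.
mt-Tq: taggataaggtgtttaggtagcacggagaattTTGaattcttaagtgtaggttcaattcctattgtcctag
mt-Tp: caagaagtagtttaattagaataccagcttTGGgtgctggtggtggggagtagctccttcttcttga
mt-Tc: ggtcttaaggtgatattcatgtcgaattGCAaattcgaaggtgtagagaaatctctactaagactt

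Mitochondrially encoded genes took 0.238, 0.285, 0.295, 0.309 and 0.332% of the library in saline mice 1 to 5. The share was 0.292, 0.343, 0.347 and 0.396% in ethanol mice 1 to 4. The groups overlapped: 3 of 4 ethanol mice lay above the highest saline mouse, and ethanol 1 lay within the saline range. The mean share was 0.344 ± 0.0426% (SD, n = 4) with ethanol and 0.292 ± 0.0347% (SD, n = 5) with saline, a difference of 0.0524 percentage points and a ratio of 1.18. The two-sided exact permutation test of this difference gave p = 0.0794, or 0.159 after Benjamini-Hochberg adjustment over the 4 shares tested (all members, proteins, rRNAs, tRNAs); the smallest p that 4 mice against 5 allow is 0.00794. In bulk samples, fewer cells of a type and less RNA per cell cannot be told apart.

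Protein genes accounted for 0.0473 of the 0.0524 percentage points. They took 0.273 ± 0.0333% of the library with ethanol and 0.226 ± 0.0261% with saline, a ratio of 1.21 (exact permutation p = 0.0556, adjusted p = 0.159), again with 3 of 4 ethanol mice above every saline mouse. The rRNAs took 0.0705 ± 0.0167% and 0.0655 ± 0.0166% (exact permutation p = 0.690, adjusted p = 0.690), and the tRNAs 0.000221% and 0.000186% (exact permutation p = 0.262, adjusted p = 0.349). The rRNA fraction of all mitochondrial counts was 16.7, 22.8, 29.1, 22.3 and 20.4% in saline mice 1 to 5 and 22.2, 15.4, 20.8 and 23.4% in ethanol mice 1 to 4. Saline 1 and ethanol 2 held the smallest rRNA fractions, 1 in each group, and the group means of 22.3 ± 4.53% and 20.4 ± 3.53% did not differ beyond their spread (difference -1.83 percentage points for ethanol minus saline, exact permutation p = 0.516). Leaving out each mouse moved this difference from -3.23 points without saline 1 to -0.118 without saline 3.

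The difference in total share moved with single mice: it ranged from 0.0352 to 0.0699 percentage points when each mouse was left out in turn, and without ethanol 1 the exact permutation p was 0.0357, unadjusted. Without saline 1 and ethanol 2 it was 0.0394 points (exact permutation p = 0.257). Within the younger mice the share was 0.371% with ethanol and 0.309% with saline (exact permutation p = 0.1, the smallest that 2 against 3 allow). Within the older mice it was 0.317% and 0.267% (2 against 2, exact permutation p = 0.667, where the smallest possible is 0.333). With mice permuted only within their age cohort the difference was 0.0566 points (exact permutation p = 0.05, unadjusted, not under the threshold). The library names end in a tag that the labels do not explain. Among names ending in 1-6-16 the means were 0.371% and 0.309%, among those ending in 1-5-16 they were 0.317% and 0.302%, and saline 1 alone has another ending. This is nearly the split by cohort: the ethanol mice are divided in the same way, and saline 4, a younger mouse, has the ending 1-5-16.

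**Figure D2:**
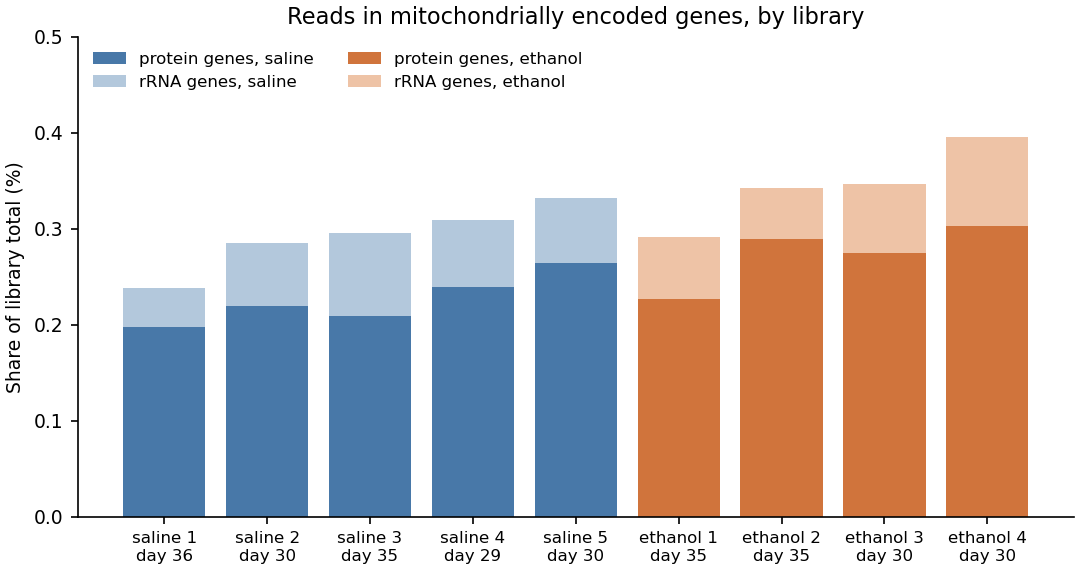
Percentage of each library's counts in mitochondrially encoded genes, stacked by protein and rRNA genes, for the 5 saline and 4 ethanol mice (tRNA genes are too few to see). Saline 1 has the shortest bar at 0.238% and ethanol 4 the tallest at 0.396%, and ethanol 1 lies among the saline mice.

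The 12 members that passed the filter (8 protein genes, both rRNAs and the tRNAs mt-Tq and mt-Tp) were tested in 1 edgeR quasi-likelihood fit with all 13067 genes that passed. None of the 12 was called at an adjusted p under 0.05, and of all genes tested 0% were called. Adjusted p ran from 0.963 to 0.973 over the members. DESeq2 and limma-voom also called 0 genes, with 435 and 512 genes at an unadjusted p under 0.05, against 386 in edgeR, which is 2.95% of genes tested. At that unadjusted level 3 of the 12 members were reached in edgeR, all 3 higher with ethanol, where 1.42% of all genes were higher. The estimate was above 0 for 11 of 12 members, against 49.8% of all genes, with a median log2 fold change of 0.22 against -0.00068 for all genes. The ethanol and saline mice did not separate for any of the 12, a separation that 1.29% of all genes showed. Without ethanol 3, 1 of the 12 was at that unadjusted level, as were 402 of all 13319 genes. Without ethanol 4 it was again 1 of the 12, with 768 of 13214 genes, and the median log2 fold change of the members was 0.07. The median was 0.12 without saline 1 and 0.11 with the ending of the library name as a covariate, each with 2 of the 12 at that level. These are not separate checks: saline 1 alone has its ending, so the covariate sets it aside too. Of all genes, 441 of 13001 were at that level without saline 1, and 506 of 13067 with that covariate. With age cohort as a covariate 4 of the 12 and 343 of 13067 genes were at that level. The median over the 12 was then 0.25. Members at that level were also 4 in limma-voom, without saline 4, without ethanol 2 and in younger mice alone, against 0 in older mice alone. All genes at that level numbered 316 of 12976 without saline 4 and 367 of 13281 without ethanol 2. They numbered 362 of 13490 in younger mice alone and 204 of 12913 in older mice alone.

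**Figure D3:**
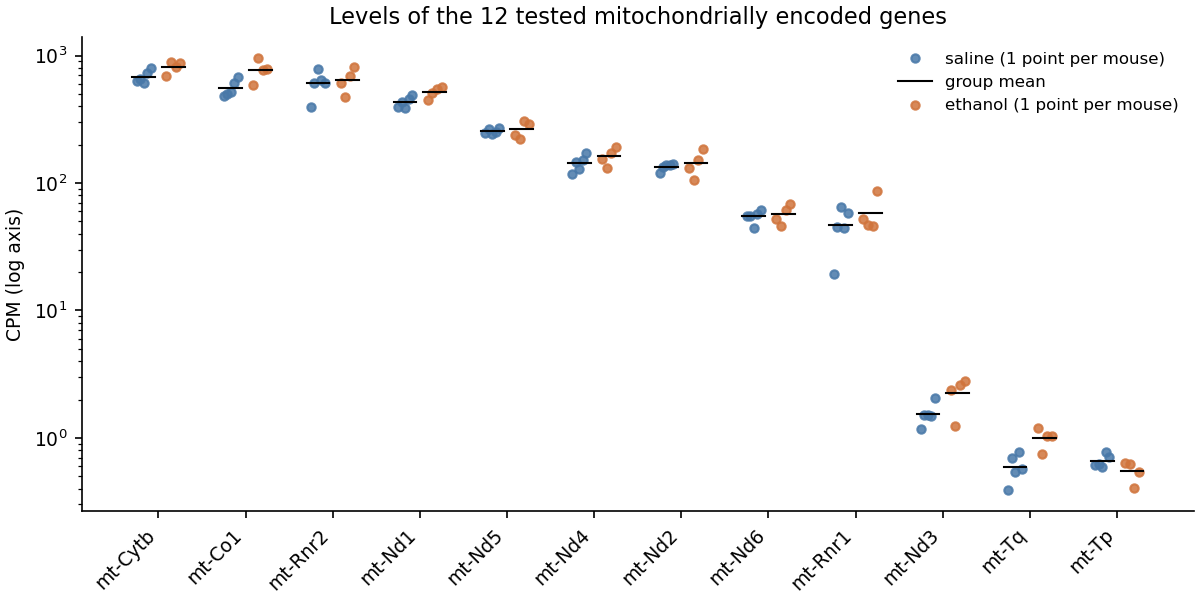
CPM of the 12 tested members in each mouse on a log axis, with 1 point per mouse (saline in blue, ethanol in orange) and a line at each group's mean; genes are ordered by mean CPM. The points of the 2 groups overlap for every gene, and mt-Nd3, mt-Tq and mt-Tp lie far below the other 9 genes.

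The 3 members at that unadjusted level encode subunits of complexes IV, III and I. mt-Co1 was at 484, 501, 516, 609 and 683 CPM in saline mice 1 to 5 and at 586, 952, 764 and 780 CPM in ethanol mice 1 to 4. Ethanol 1 fell within the saline range and the other 3 ethanol mice above it, with ethanol 2 far above. The log2 fold change of mt-Co1 was 0.46 ± 0.14 (SE; 95% interval 0.15 to 0.78; edgeR unadjusted p = 0.00723, adjusted p = 0.963), and 0.30 without saline 1 and ethanol 2.

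mt-Cytb was at 632, 660, 606, 724 and 796 CPM in the saline mice and at 689, 883, 815 and 868 CPM in the ethanol mice. mt-Nd1 was at 397, 429, 390, 459 and 492 CPM with saline and at 451, 510, 542 and 565 CPM with ethanol. In both genes ethanol 2, 3 and 4 lay above every saline mouse and ethanol 1 among them. The log2 fold change was 0.25 ± 0.10 for mt-Cytb (SE; 95% interval 0.03 to 0.47; edgeR adjusted p = 0.963) and 0.25 ± 0.09 for mt-Nd1 (SE; 0.05 to 0.46; edgeR adjusted p = 0.963).

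Of the other complex I genes, mt-Nd2, mt-Nd4, mt-Nd5 and mt-Nd6 had estimates nearer 0. mt-Nd4 was at 143 ± 20.7 CPM (SD, n = 5) with saline and 163 ± 25.7 CPM (n = 4) with ethanol, a log2 fold change of 0.19 ± 0.13 (SE). That fold change was 0.094 without ethanol 4 and 0.124 without saline 1. It was 0.116 with the ending of the library name as a covariate, which sets saline 1 aside too. For mt-Nd2, mt-Nd5 and mt-Nd6 the log2 fold changes were 0.09 ± 0.14, 0.06 ± 0.10 and 0.06 ± 0.13 (SE), with 95% intervals that reach from -0.20 to 0.39, from -0.16 to 0.27 and from -0.23 to 0.34. mt-Nd3 had 0.53 ± 0.31 (SE) on levels of 1.55 ± 0.309 and 2.26 ± 0.697 CPM, from at most 57 counts per library.

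In mt-Nd2, which was at 119, 133, 137, 139 and 142 CPM in the saline mice and 131, 106, 152 and 184 CPM in the ethanol mice, the ethanol group spanned the saline group on both sides. The same held for mt-Nd5, with 246, 263, 244, 251 and 269 CPM in the saline mice and 239, 221, 306 and 293 CPM in the ethanol mice: ethanol 1 and 2 were below every saline mouse, and ethanol 3 and 4 above. Ethanol 1 and 2 are from the older cohort and ethanol 3 and 4 from the younger.

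The rRNAs varied more than the groups differed. mt-Rnr1 was at 19.3, 45.0, 65.0, 44.5 and 58.6 CPM in the saline mice and at 51.9, 46.7, 45.6 and 86.7 CPM in the ethanol mice. mt-Rnr2 was at 392, 604, 787, 642 and 612 CPM in the saline mice and at 607, 472, 692 and 816 CPM in the ethanol mice. Saline 1 was lowest and ethanol 4 highest for both. The log2 fold changes were 0.31 ± 0.31 and 0.09 ± 0.20 (SE), with 95% intervals from -0.38 to 1.01 and from -0.34 to 0.53. The estimate for mt-Rnr1 was 0.046 without ethanol 4 and 0.117 without saline 1. It was 0.102 with the ending of the library name as a covariate, which sets saline 1 aside too. Of the tRNAs, mt-Tq had 0.593 ± 0.147 CPM with saline and 1.00 ± 0.186 CPM with ethanol, a log2 fold change of 0.74 ± 0.36 (SE; edgeR unadjusted p = 0.0619, adjusted p = 0.963), and mt-Tp -0.26 ± 0.36 (SE). Both rest on 7 to 21 counts per library.

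**Figure D4:**
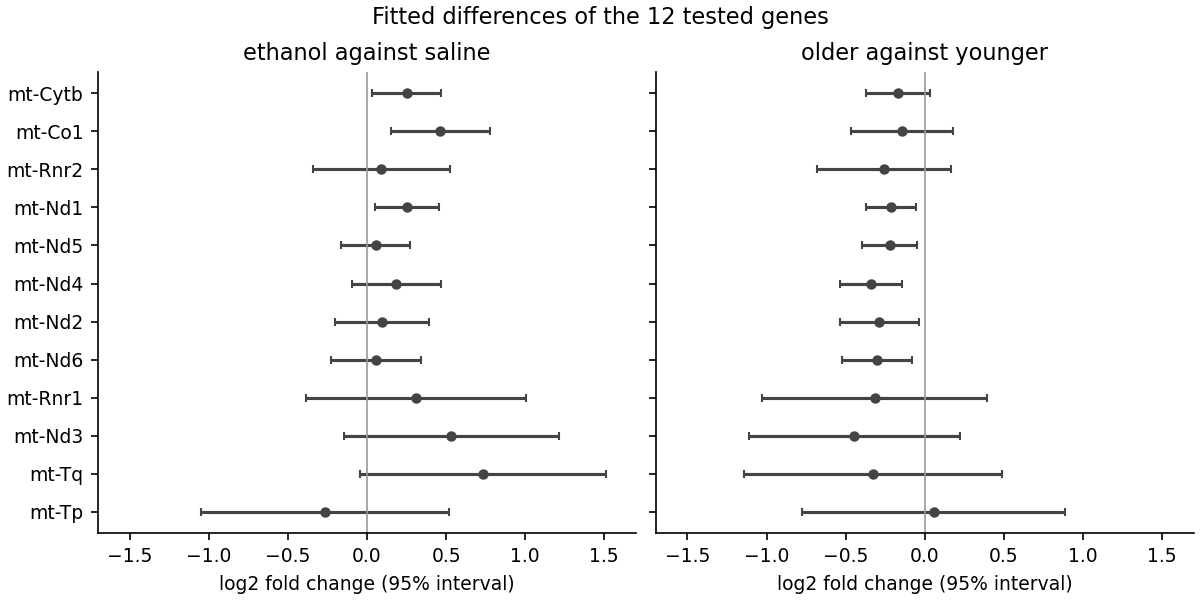
Log2 fold change of each member tested, with points for the edgeR estimate and bars for its 95% interval: ethanol against saline on the left, older against younger on the right. On the left mt-Co1, mt-Cytb and mt-Nd1 have intervals that stay above 0 before adjustment, and on the right mt-Nd1, mt-Nd2, mt-Nd4, mt-Nd5 and mt-Nd6 have intervals that stay below it; no adjusted p was under 0.05 on either side.

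The mice differed in the balance among the members as well as in their sum. Ethanol 4 was highest for 6 of the 9 protein and rRNA genes tested other than mt-Nd3, and lay above the median of the 9 mice for all 9. Saline 1 lay above the median for none of the 9, and its deviation was deepest in the rRNAs: on the log2 scale mt-Rnr1 was -1.28 and mt-Rnr2 -0.64 from the median. The ratio of mt-Rnr2 to mt-Rnr1 counts was 20.4 in saline 1 and 9.41 to 15.2 in the other mice.

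Ethanol 2 was divided between genes. It was highest for mt-Co1, 0.64 above the median on the log2 scale, and lowest for mt-Nd2, at -0.38. Its ratio of mt-Co1 to mt-Nd2 counts was 9.00, against 3.76 to 5.04 in the other 8 mice, and its ratio of mt-Co1 to mt-Cytb was 1.08 against 0.759 to 0.938. By contrast, the ratio of mt-Nd5 to mt-Nd6, which are transcribed from opposite strands and meet at their 3′ ends, ran from 4.30 to 5.54 with ethanol 2 at 4.84. Ethanol 2 was the library with 692 low genes, and saline 1 the one with the fewest neuronal and astrocytic transcripts; their part in these balances was not tested.

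**Figure D5:**
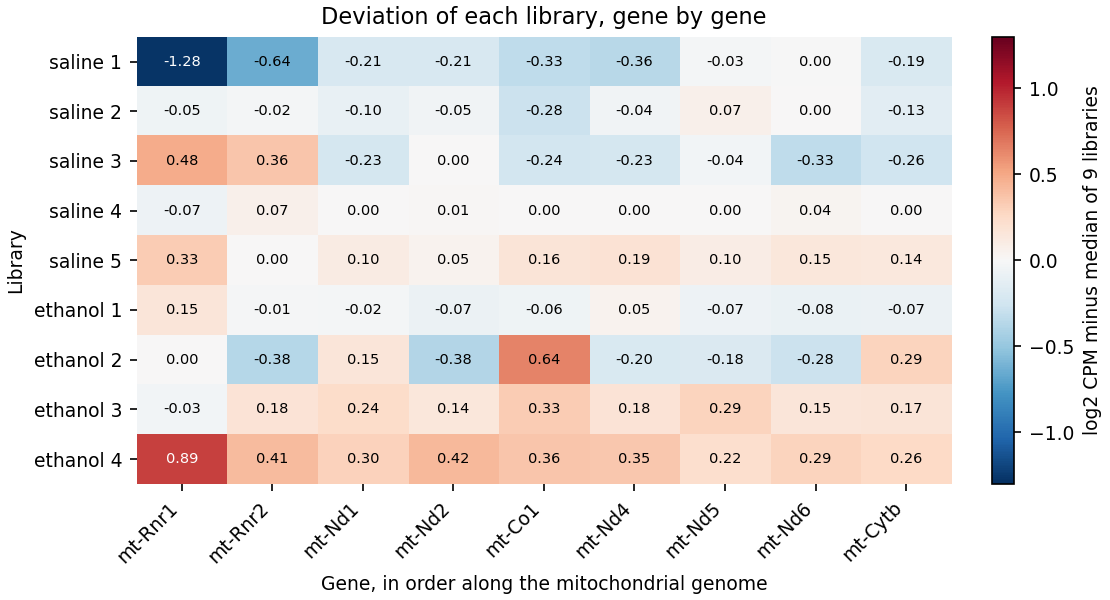
Log2 deviation of each library from the median of the 9 libraries, by gene, for the 9 protein and rRNA genes tested other than mt-Nd3; colour and printed value give the deviation. Saline 1 is lowest in the rRNA genes (-1.28 for mt-Rnr1), ethanol 4 is above 0 throughout, and ethanol 2 is high for mt-Co1 (0.64) and low for mt-Nd2 (-0.38).

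No member passed the test between the age cohorts, while the levels of 2 members, mt-Nd5 and mt-Nd6, did not overlap between older and younger mice. The share of the library was 0.292 ± 0.0428% (SD, n = 4) in the older mice and 0.334 ± 0.0418% (n = 5) in the younger, a difference of -0.0418 percentage points that did not pass the test (two-sided exact permutation p = 0.206). Leaving out each mouse, that difference ran from -0.0587 points without ethanol 2 to -0.0239 without saline 1. In the edgeR fit with a term for ethanol, 0 of the 12 members were called (adjusted p 0.973 to 0.991), as were 0% of all genes; 372 genes were at an unadjusted p under 0.05, against 451 in DESeq2 and 439 in limma-voom, with 0 called by either. At an unadjusted p under 0.05, 5 of the 12 members were lower in the older mice, against 1.75% of all genes. The estimate was below 0 for 11 of 12 members, against 54.8% of all genes, with a median log2 fold change of -0.27 against -0.02. With the replicate number as a block, 0 of the 12 reached that unadjusted level, against 801 of 13067 genes, and the median over the 12 was -0.17. Same-numbered mice were not paired, and only replicates 2 and 3 hold both cohorts, so that age estimate rests on those 4 mice. Without ethanol 1, 2 of the 12 and 552 of 13343 genes reached the level. Without ethanol 2 it was 6 of the 12 and 330 of 13281 genes. In limma-voom and without saline 3, 7 of the 12 reached it. Without saline 3, 691 of 13238 genes did.

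All 5 members at that level encode subunits of complex I, as do all protein genes tested other than mt-Co1 and mt-Cytb. The level of mt-Nd5 was 239 and 221 CPM in the older ethanol mice (1 and 2), 246 and 244 CPM in the older saline mice (1 and 3), 306 and 293 CPM in the younger ethanol mice (3 and 4), and 263, 251 and 269 CPM in the younger saline mice (2, 4 and 5). Every older mouse was below every younger one. mt-Nd6 was at 55.4, 44.1, 52.4 and 45.7 CPM in older mice (saline 1 and 3, ethanol 1 and 2). In younger mice (saline 2, 4 and 5, ethanol 3 and 4) it was at 55.5, 57.0, 61.4, 61.7 and 68.0 CPM. Its cohorts did not overlap either, but were nearly tied where they met, at 55.44 CPM in saline 1 and 55.49 CPM in saline 2. mt-Nd5 and mt-Nd6 were 2 of 12 members, where 0.597% of all genes separated in that direction. Age cohort nearly followed the ending of the library name: every library ending in 1-6-16 was from a younger mouse, and saline 4 was the only other younger mouse. Which mice were littermates is unknown here, so mice of a cohort may not be independent. The parts of age, litter and library set in this separation were not tested.

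Older against younger, the log2 fold change was -0.22 ± 0.08 (SE) for mt-Nd5 and -0.30 ± 0.10 (SE) for mt-Nd6. mt-Nd4, at 133 ± 15.9 CPM in the older mice and 166 ± 18.6 CPM in the younger, had -0.34 ± 0.09 (SE; edgeR unadjusted p = 0.00284, adjusted p = 0.973). mt-Nd1 and mt-Nd2 had -0.21 ± 0.07 and -0.29 ± 0.11 (SE). mt-Co1 and mt-Cytb had -0.14 ± 0.14 and -0.17 ± 0.09 (SE), with intervals that span 0. The interaction of ethanol and age cohort called 0 of 12 members in edgeR (adjusted p 0.974 to 1.00) and 0% of 13893 genes tested, and 0 of 12 reached an unadjusted p under 0.05, against 3.21% of all genes. The median log2 interaction estimate over the 12 members was -0.09. Without ethanol 1, which leaves 1 older ethanol mouse, it was -0.17. In the fit without ethanol 1 that lone mouse is assumed to vary like the other groups, so only the estimate is given.

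The share of mitochondrially encoded genes was set against 6 recorded measures over the 9 mice. It was higher in mice with a higher RNA concentration (Pearson's r = 0.75, exact permutation p = 0.0232, adjusted over the 6 measures 0.0697; Spearman's rho = 0.75, exact permutation p = 0.0255, adjusted 0.153), and r was 0.48 without the 2 mice farthest from the median concentration. With the summed CPM of neuronal and astrocytic markers r was 0.75 (exact permutation p = 0.0225, adjusted 0.0697), rho was 0.30 (exact permutation p = 0.437, adjusted 0.714), and r was -0.02 without the 2 farthest mice, so that this relation rests on those mice. For age, sorted cells, RNA integrity number and library total r was -0.51, 0.37, 0.26 and 0.04. Without saline 1 and ethanol 2, r was 0.89 with RNA concentration (exact permutation, adjusted p = 0.0738) and 0.68 with the marker sum (adjusted p = 0.245). RNA concentration was 205, 171, 203, 237 and 188 pg/ul in saline mice 1 to 5. In ethanol mice 1 to 4 it was 166, 238, 242 and 330 pg/ul, so ethanol 2, 3 and 4 lay above every saline mouse. The parts of treatment and RNA concentration in the share were not tested. No relation passed after adjustment.

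Nuclear genes that make and use mitochondrial RNA were read in the same fit of ethanol against saline, in 5 lists, and 0 of their genes were called. Of all genes tested, 49.8% had an estimate above 0 and 2.95% an unadjusted p under 0.05. Of 17 tested genes for transcription and replication of mitochondrial DNA, 9 had an estimate above 0, and the median log2 fold change was 0.05. Polg, the catalytic subunit of the mitochondrial DNA polymerase, had -0.20 ± 0.12 (SE), and Polrmt, the mitochondrial RNA polymerase, -0.18 ± 0.14 (SE). Tfb1m, which methylates the 12S rRNA, was at 5.53 ± 0.796 CPM with saline and 7.66 ± 1.89 CPM with ethanol, 0.48 ± 0.20 (SE; edgeR unadjusted p = 0.0322, adjusted p = 0.963), the single gene of the 5 lists at an unadjusted p under 0.05. Top1mt, the mitochondrial topoisomerase, had 0.35 ± 0.18 (SE).

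Among 32 tested genes for processing, stability and modification of mitochondrial RNA the median log2 fold change was 0.01, with 17 genes higher than 0. Lrpprc, which stabilises mitochondrial mRNAs, was at 120 ± 7.51 and 118 ± 18.6 CPM with saline and ethanol, a log2 fold change of -0.03 ± 0.11 (SE). The RNA-binding protein Grsf1 had 0.06 ± 0.08, the tRNA-modifying enzyme Gtpbp3 0.19 ± 0.10 and the oligoribonuclease Rexo2 -0.22 ± 0.12 (SE). Of 14 genes listed under translation 11 were above 0, against 49.8% of all genes, with a median of 0.07. Gfm2 had -0.15 ± 0.18 and the mt-Co1 translation activator Taco1 0.25 ± 0.18 (SE). The list also held Letm1 and the membrane insertase Oxa1l, which are not translation factors, at -0.04 ± 0.09 and 0.13 ± 0.10 (SE).

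Of 9 tested regulators of mitochondrial biogenesis 6 were below 0 and 3 above, where 49.8% of all genes were above, and the median was -0.06. The coactivators Ppargc1b and Pprc1 had -0.43 ± 0.26 and -0.06 ± 0.15, the transcription factor Tfe3 -0.05 ± 0.08 and the deacetylase Sirt3 -0.15 ± 0.15 (SE). Among 39 nuclear-encoded subunits of the respiratory chain 28 estimates exceeded 0, against 49.8% of all genes, and the median log2 fold change was 0.05. The ATP synthase subunits Atp5b, Atp5a1 and Atp5o had 0.11 ± 0.07, 0.06 ± 0.07 and 0.16 ± 0.09, and Cyc1, cytochrome c1 of complex III, 0.17 ± 0.08 (SE). The 95% interval of Atp5b, the most abundant of them, ran from -0.04 to 0.25.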

How the data were processed

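The values the authors deposited were raw counts, not normalised, of the reads assigned to each gene symbol in 9 libraries. Per the submitters' processing notes, Trimmomatic 0.32, STAR 2.4.2a, HTSeq 0.6.1 and the build GRCm38.p4 were used; the sources used here do not give settings, annotation release, read layout, strand or treatment of reads with several alignments. From the counts, 13067 genes passed edgeR's filterByExpr (minimum count 10, minimum total 15) and were fitted with TMM scaling and robust quasi-likelihood tests (R 4.3.3, edgeR 4.0.16; alternatives DESeq2 1.42.0 and limma 3.58.1), with Benjamini-Hochberg adjustment over all genes and a threshold of 0.05. Shares of raw library totals were compared by exact permutation (126 splits; scipy 1.17.1). The test code was tested on simulated data. Sequences, lengths and coordinates came from GENCODE M21, which may not be the release used for counting; shared windows were searched on both strands in all nuclear transcripts, and copies aligned with Biopython 1.88.

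All protein and rRNA members are named, with the tRNAs that passed the filter or were among the 3 most abundant. From each nuclear list the 2 genes with the highest mean CPM and the 2 with the smallest p were named. The members and lists were chosen with earlier results of these data known. Counting error is small beside the spread between mice for the shares (in saline 1, 0.238%, 95% exact binomial interval 0.236 to 0.240%). The interval covers counting only, since reads are not independent molecules. Same-numbered saline and ethanol mice were not paired: their deviations correlated at -0.10 to 0.0003.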

Additional observations from a re-analysis of the deposited data

Results flagged for a closer look

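mt-Rnr1, the 12S rRNA, was at 86.7 CPM in ethanol 4, set apart from the other 3 ethanol mice at 45.6 to 51.9 CPM; the gap to the nearest mouse was 0.847 of the group's range, above Dixon's 95% critical value for 4 samples. Of 34 groups examined for such a gap, 1 showed one, where chance gives about 1 in 20. Ethanol 4 also had the highest RNA concentration (330 pg/ul) and the highest summed neuronal markers (312 CPM) of the 9 mice; their part in this value was not tested.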

How the results depend on the processing

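Under every alternative fit of ethanol against saline that was run, edgeR, DESeq2 and limma-voom called 0 members and 0 genes. A block on replicate number also gave 0. A block of 4 same-numbered pairs put the share difference at 0.0623 points (exact sign-flip permutation p = 0.125). That p is the smallest that 4 pairs allow, so the paired test could not have passed the threshold. Leaving out each mouse, the share difference ran from 0.0352 to 0.0699, past the threshold without ethanol 1 only, and the rRNA share difference from -0.00234 to 0.0110. The age contrast over all genes called 97 without a count filter and 3 without saline 1 and ethanol 2, against 0, with 0 members in each. The correlation with library total was -0.13 without saline 1 and ethanol 2.

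Uncalled log2 fold changes of ethanol that turned sign were these. Leaving out each mouse gave mt-Nd2 -0.051 to 0.213, mt-Nd5 -0.022 to 0.13, mt-Nd6 -0.040 to 0.149, mt-Rnr2 -0.041 to 0.212, Lrpprc -0.090 to 0.055 and Pprc1 -0.164 to 0.089. Without a turn of sign, mt-Tp ran from -0.339 to -0.142. In older mice alone mt-Nd2 was -0.118, mt-Nd5 -0.092, mt-Nd6 -0.023, mt-Rnr2 -0.127, mt-Tp 0.058, Letm1 0.053, Polrmt 0.040 and Sirt3 0.034. In younger mice alone Gfm2 was 0.013, Grsf1 -0.0038, Pprc1 0.191 and Tfe3 0.040. With the ending of the library name as a covariate mt-Rnr2 was -0.047. In limma-voom Lrpprc and Pprc1 were 0.038 and 0.041. Without saline 1 and ethanol 2 they were 0.029 and 0.087, and Tfe3 0.017. In the age contrast mt-Co1 and mt-Rnr1 were 0.180 and 0.279 with the replicate block, where only replicates 2 and 3 hold both cohorts. In the same contrast mt-Rnr1 and mt-Rnr2 were 0.067 and 0.049 without saline 1 and ethanol 2, and mt-Tp ran from -0.069 to 0.149 leaving out each mouse. The cause was not tested.

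Windows of 100 bases, a length chosen after seeing the data, gave 30.8% for mt-Co1, 60.8% for mt-Nd4, 3.19% for mt-Nd2, 0% for mt-Nd5 and mt-Rnr2, and 97.6 to 99.9% for the 5 genes with the largest shares. Depth limits the tRNA genes and mt-Nd3, with at most 57 counts per library.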
